A study of Mus musculus with 8 samples.

Results

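The genes described here are 51 members of the transforming growth factor β (TGF-β) and bone morphogenetic protein (BMP) signalling system, covering their ligands, receptors, extracellular regulators, SMAD proteins and well-known target genes. A fixed list of gene symbols chose them. The rule held no expression value, but the list was drawn up with earlier results of these data known. All 51 had a detected probe, by 68 probes in all, among 33619 genes and unnamed features tested. They were read on 8 single-colour microarrays of mesonephric tubules cut by microdissection from mouse embryo cryosections stained with toluidine blue, 5 arrays from wild-type and 3 from p21-null (p21-/-) embryos, all of strain C57/BL6. The mesonephros is the transient embryonic kidney, and p21 is the cell-cycle inhibitor encoded by Cdkn1a. The series describes the wild-type tubules as senescent and the p21-null tubules as not senescent, so the comparison asks how gene expression in this tissue differs with and without p21. Neither an embryonic age nor whether replicates came from separate embryos is stated in the labels, so every p-value measures the spread between these samples, which may be technical.

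In this system a secreted dimeric ligand brings a type II and a type I serine/threonine kinase receptor together, and the type I receptor phosphorylates receptor SMADs that enter the nucleus with SMAD4. TGF-β and activin ligands act mainly through SMAD2 and SMAD3, and BMP ligands through SMAD1, SMAD5 and SMAD9, while SMAD6, SMAD7 and the SMURF ubiquitin ligases restrain the pathway. BMP and activin signals are known to take part in the growth and patterning of the nephric duct and its tubules, and TGF-β signalling is one of the inputs known to induce cyclin-dependent kinase inhibitors.

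Each level below is the log2 of a probe's signal, scaled so that the 75th percentile of its array is 0, and levels on different probes cannot be set against each other. Each difference is the mean of the arrays labelled p21-null minus the wild-type mean on that scale. On each array 82.2 to 89.2% of 55681 probes were well above background and no spot was saturated, and correlations between arrays ran from 0.881 to 0.955. Cdkn1a has 2 probes, and neither separated the groups. The brighter read 2.49, 2.52, 0.44, 1.85 and 1.11 on the wild-type arrays and 2.11, 0.96 and 1.40 on those labelled p21-null, a difference of -0.19 (SE 0.54, limma adjusted p = 0.950), and the other gave -0.24 (SE 0.36), with wild-type arrays from -2.10 to -0.88 and the others from -2.17 to -1.51. The files do not say whether either probe lies in the deleted part of the gene. For that reason the text says labelled p21-null, with arrays numbered 1 to 3 as in the labels. The mean of 12 tubule and duct markers ran from -2.46 to 0.22 in wild type and from -2.48 to -1.59 in the labelled p21-null group, with 9 of the 12 lower and 3, Cdh1 (difference 1.65), Lhx1 (0.09) and Epcam (0.08), higher. Of these markers Ret was well above background on 4 wild-type arrays and on 0 of the others. Markers of some other tissues moved with the groups: the mean of 10 liver markers ran from 0.14 to 3.99 against 3.67 to 4.88, that of 10 erythroid markers from 0.68 to 3.11 against 3.31 to 4.18, and that of 9 macrophage markers from -0.95 to 0.46 against 0.34 to 0.94. Of these lists, all 10 liver, 9 of 10 erythroid and 7 of 9 macrophage markers had higher means in the labelled p21-null group. The mean of 9 stromal and smooth muscle markers ran from 0.58 to 1.57 against -0.19 to 0.27, and that of 10 neural crest, glial and neuronal markers from -2.46 to -0.58 against -3.42 to -2.42, with 10 of 10 neural and 9 of 10 stromal markers lower. One of those lower stromal markers, Myh11, had a value on only 1 wild-type array and was left out of the mean. The means of the podocyte, endothelial, gonadal somatic and mesothelial markers differed less, by -0.14, 0.26, -0.50 and -0.60, and overlapped between the groups. The part of these tissues in the differences below was not tested. In such bulk samples fewer cells of a type and less RNA per cell cannot be told apart.

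Most TGF-β and BMP genes read lower in the labelled p21-null tubules, and none of the 51 passed the adjusted test. Of the 51 members, 41 (80.4%) had a negative and 10 a positive difference, with a median of -0.42, beside 52.3% negative and a median of -0.03 over all features. The smallest adjusted limma p of a member was 0.253, and 0 of 33619 features (0%) passed the adjusted threshold of 0.05. At an unadjusted limma p under 0.05 stood 10 members (19.6%), 8 of them lower and 2 higher, where 10.1% of all features did, 3.91% lower and 6.2% higher. Among features with a symbol, as all members have, the share was 12.8%. The groups did not overlap for 6 members (11.8%), 5 lower and 1 higher, against 6.89% of all features, of which 2.47% were lower and 4.43% higher. No test was made of the list as a whole, which was drawn up with earlier results of these data known. These shares describe these arrays.

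**Figure D1:**
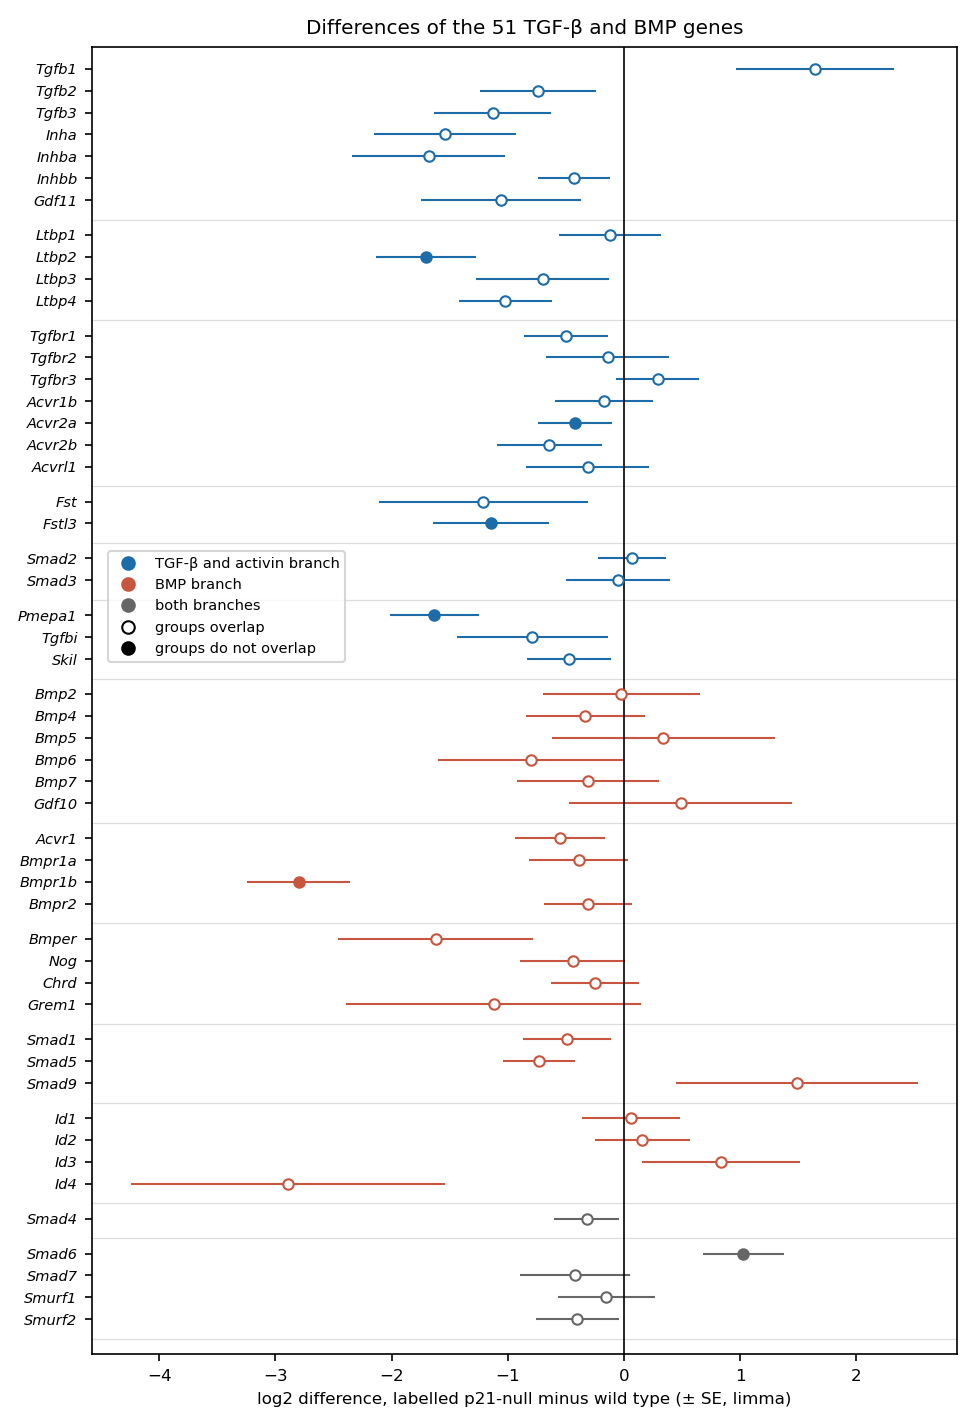
Log2 difference (x axis, labelled p21-null minus wild type) of each of the 51 genes, in order of role, with bars for the limma standard error over 5 and 3 arrays; filled points are genes whose groups do not overlap. Bmpr1b lies farthest left among the filled points at -2.80, and Tgfb1 and Smad6 are the genes to the right with an unadjusted p under 0.05.

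The members were then counted by branch, with Acvrl1 placed in the TGF-β and activin branch and Gdf10 in the BMP branch. Other placements of these genes were not tried. In the TGF-β and activin branch 22 of 25 genes (88%) were lower, with a median difference of -0.64 and 7 genes (28%) at an unadjusted limma p under 0.05, 6 lower and 1 higher. In the BMP branch 15 of 21 genes (71.4%) were lower, with a median of -0.33 and 2 genes at that level, Bmpr1b and Smad5, both lower. That share, 9.52%, was close to the 10.1% of all features and below the 12.8% of those with a symbol. That BMP median was -0.19 without p21-null replicate 3, -0.57 without p21-null replicate 2 and -0.51 without wild-type replicate 3. The difference between the branches was not tested. The BMP genes also varied more among the wild-type arrays: the median standard deviation was 0.89 for BMP genes, 0.64 for TGF-β and activin genes and 0.61 over all features. Among the role groups it was 1.33 for the 2 activin-binding inhibitors and 1.27 for the 6 BMP ligands. Taken array by array, the median deviation of the 24 TGF-β and activin genes read on every array was -0.01, 0.11, -0.53, -0.10 and 0.25 on the wild-type arrays and -0.60, -0.32 and -0.77 on those labelled p21-null. Wild-type replicate 3 therefore lay lower than p21-null replicate 2, and the other wild-type arrays lay above all of that group. The same median over the 21 BMP genes was -0.26, 0.68, -0.42, 0.30 and 0.29 against -0.55, -0.05 and -0.76, with wild-type replicates 1 and 3 below p21-null replicate 2. The group means of these array medians were -0.05 and -0.57 for TGF-β and activin genes, a difference of -0.51. For BMP genes they were 0.12 and -0.45, a difference of -0.57. By this measure the order of the branches was the reverse of that of the gene medians.

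**Figure D2:**
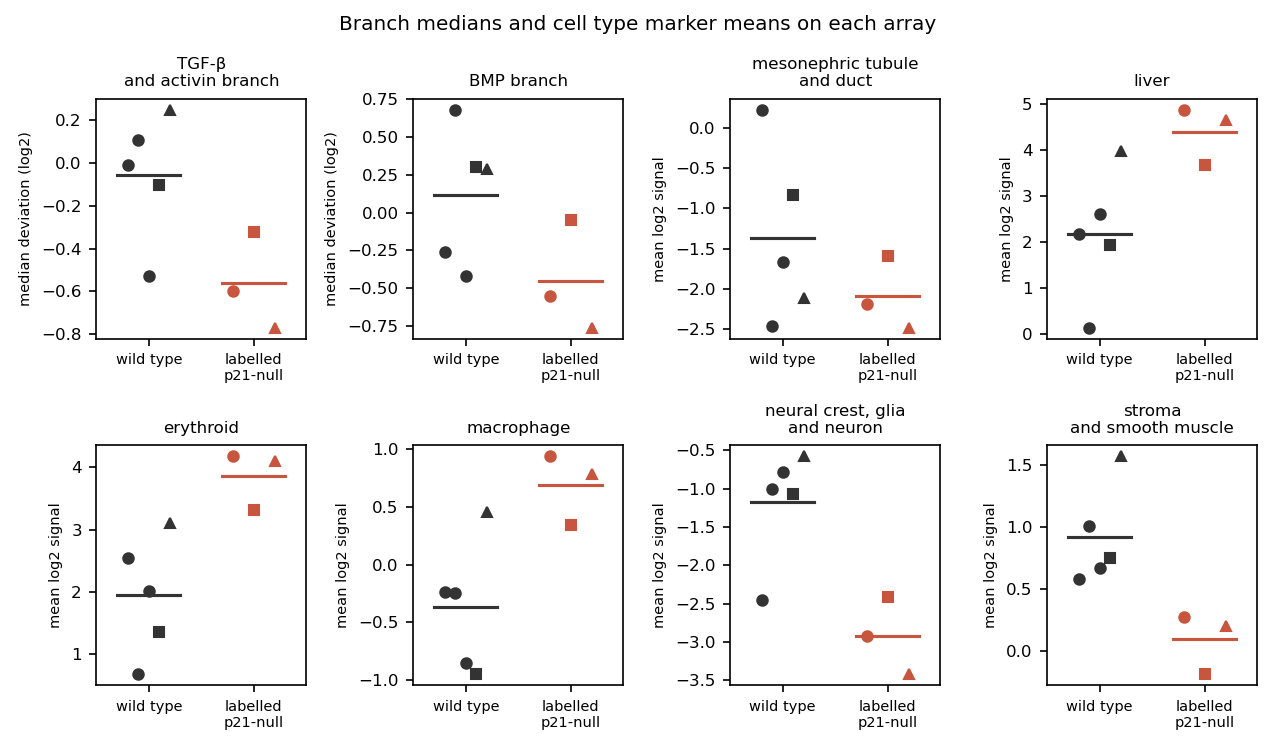
The first 2 panels give, for each array, the median log2 deviation of each branch from the wild-type mean, and the other panels the mean log2 signal of 6 lists of cell type markers; lines are group means, circles slide 1, squares slide 2 and triangles slide 3. The erythroid and stromal means do not overlap between groups, and the liver means and both branch medians do.

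Among the 6 genes whose groups did not overlap, 4 had an unadjusted limma p under 0.05 and a RefSeq promoter window (build GRCm38.p6). Their sequences are shown as examples, and the motif counts below cover every member with a window. The capitals mark CAGAC or its reverse complement GTCTG, the short element that SMAD3 and SMAD4 are known to bind, and for Smad6 the palindrome GTCTAGAC. Ltbp2 (chr12:84876492-84876741, minus strand), Fstl3 (chr10:79777024-79777273, plus strand) and the outermost of 3 Bmpr1b starts (chr3:141982265-141982514, minus strand) are given by the 250 bases before the start, and Smad6 (chr9:64022045-64022074, minus strand) by 30 bases around it. Neither the 250 bases before the Smad6 start nor those of another Bmpr1b start (chr3:141931421-141931670) hold CAGAC on either strand.
Ltbp2: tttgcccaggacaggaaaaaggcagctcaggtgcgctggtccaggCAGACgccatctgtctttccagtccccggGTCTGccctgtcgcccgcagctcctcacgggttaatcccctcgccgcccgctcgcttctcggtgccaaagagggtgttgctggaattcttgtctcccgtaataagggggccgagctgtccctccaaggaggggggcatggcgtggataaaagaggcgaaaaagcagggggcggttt
Fstl3: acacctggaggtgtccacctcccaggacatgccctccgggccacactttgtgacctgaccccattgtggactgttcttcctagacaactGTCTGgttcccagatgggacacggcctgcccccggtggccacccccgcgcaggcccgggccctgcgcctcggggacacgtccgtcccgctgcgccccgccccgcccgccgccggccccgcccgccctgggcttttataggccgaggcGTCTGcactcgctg
Bmpr1b: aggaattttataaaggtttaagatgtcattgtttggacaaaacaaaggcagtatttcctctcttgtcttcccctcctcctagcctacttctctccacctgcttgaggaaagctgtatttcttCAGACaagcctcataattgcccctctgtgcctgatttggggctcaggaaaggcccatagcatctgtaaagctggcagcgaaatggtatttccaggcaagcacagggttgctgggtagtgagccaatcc
Smad6: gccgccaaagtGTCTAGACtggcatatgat

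Of the 51 members, 38 had a window in the RefSeq table, giving 46 windows of 300 bases that run from 250 before to 50 after a start. CAGAC on either strand was in 50.0% of these windows and in 49.6% of all 32851 windows, so the members' share was close to that of promoters in general. GTCTAGAC was in 1 member window, that of Smad6, where it covers bases -4 to 4 around the start, and in 70 of all windows (0.213%). GGCGCC, a GC-rich element that BMP SMADs are known to bind, was in 34.8% of member windows and 11.9% of all windows. It was in 47.6% of windows of BMP genes and 22.7% of those of TGF-β and activin genes. Some windows of the same gene overlap and share a match. By gene, GGCGCC was found for 14 of 38 members and 3617 of 27025 genes in all. It was found for 9 of 17 BMP genes and 4 of 18 TGF-β and activin genes. The median GC content of the 250 bases before the start was 67.4% for the members and 52.4% for all windows. The motifs share no positions with each other in the 4 sequences shown. A match is a description of the letters and not of binding.

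Of the 7 TGF-β and activin ligands, 6 were lower and 1, Tgfb1, was higher, with a median difference of -1.06. Inhba, which encodes the βA subunit of activin A, read -0.26, -0.75, -0.37, -0.91 and -1.63 in wild type and -4.24, -1.09 and -2.06 in the labelled p21-null group. The lowest value was on p21-null replicate 1, and p21-null replicate 2 lay above wild-type replicate 5, so the groups overlapped. The difference was -1.68 (SE 0.66, 3.20-fold lower, limma p = 0.0312, adjusted p = 0.436, exact permutation p = 0.0357), and without p21-null replicate 1 it was -0.79. Inha, the α subunit that turns activin subunits into inhibins, read -1.03, -1.09, -2.14, -1.33 and 0.00 against -3.71, -1.35 and -2.92. Here too p21-null replicate 2 lay among the wild-type arrays, and replicates 1 and 3 lay below all of them. The difference was -1.54 (SE 0.61, 2.92-fold lower, limma p = 0.0311, adjusted p = 0.436, exact permutation p = 0.0536), and without p21-null replicate 1 it was -1.02.

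Tgfb1 encodes TGF-β1, which many cell types secrete in latent form, and it was the member with the largest positive difference. It read -2.87, -2.70, -3.01, -2.66 and -0.52 in wild type and -0.21, -2.01 and 0.11 in the labelled p21-null group. Wild-type replicate 5 stood apart from the other wild-type arrays and lay above p21-null replicate 2, so the groups overlapped. The difference was 1.65 (SE 0.68, 3.13-fold higher, limma p = 0.0388, adjusted p = 0.461, exact permutation p = 0.0893). The arrays with high Tgfb1 were those with macrophage marker means of 0.46, 0.94 and 0.79. On that measure p21-null replicate 2 had 0.34 and the other wild-type arrays -0.24 or lower. The same arrays had the highest liver marker means, 3.99, 4.88 and 4.65. For liver, p21-null replicate 2 had 3.67 and the other wild-type arrays 2.61 or lower. The part of macrophage or liver RNA in Tgfb1 was not tested. The unadjusted limma p exceeded 0.05 when any of wild-type replicates 1 to 4 or p21-null replicate 1 or 3 was left out, with a highest p of 0.149.

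Tgfb3, which encodes TGF-β3, read -1.87, 0.49, -1.15, -0.58 and -0.46 against -1.59, -1.76 and -2.17, and the wild-type replicate 1 value lay among the labelled p21-null values. Its difference was -1.13 (SE 0.50, 2.18-fold lower, limma p = 0.0501, adjusted p = 0.494, exact permutation p = 0.107). Tgfb2, which encodes TGF-β2, read 0.69, 1.80, 0.30, 1.37 and 2.44 against 0.16, 1.0 and 0.58, a difference of -0.74 (SE 0.50, limma adjusted p = 0.698). The 3 TGF-β isoform genes thus differed in sign, with Tgfb1 positive and the others negative, and on each of the 3 slides taken alone the signs were the same. Inhbb, the βB subunit of activin B, had a difference of -0.43 (SE 0.31), and Gdf11, a ligand of activin receptors known for its part in the start of ureteric budding, had one of -1.06 (SE 0.69) over 4 wild-type arrays, because the spot on wild-type replicate 5 was marked as an outlier by the scanner software.

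All 4 genes for latent TGF-β binding proteins, which tether latent TGF-β to the extracellular matrix or, in Ltbp2, bind matrix fibres without carrying TGF-β, had negative differences, with a median of -0.86. Ltbp2 read -1.01, 0.47, -0.76, -1.13 and -0.81 in wild type and -2.85, -2.36 and -1.84 in the labelled p21-null group. Every labelled p21-null array lay below every wild-type array, and wild-type replicate 2 was the highest. The difference was -1.70 (SE 0.43, 3.26-fold lower, limma p = 0.0033, adjusted p = 0.288, exact permutation p = 0.0179, the smallest that the 56 splits of these arrays allow). Ltbp4 read 2.02, 2.02, 1.07, 0.95 and 2.34 against 0.52, 0.98 and 0.47, and p21-null replicate 2 lay just above wild-type replicate 4. Its difference was -1.02 (SE 0.40, 2.03-fold lower, limma p = 0.0303, adjusted p = 0.430, exact permutation p = 0.0536), and the other Ltbp4 probe gave -0.83. Ltbp3 had a difference of -0.70 (SE 0.57) and Ltbp1 of -0.12 (SE 0.44).

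**Figure D3:**
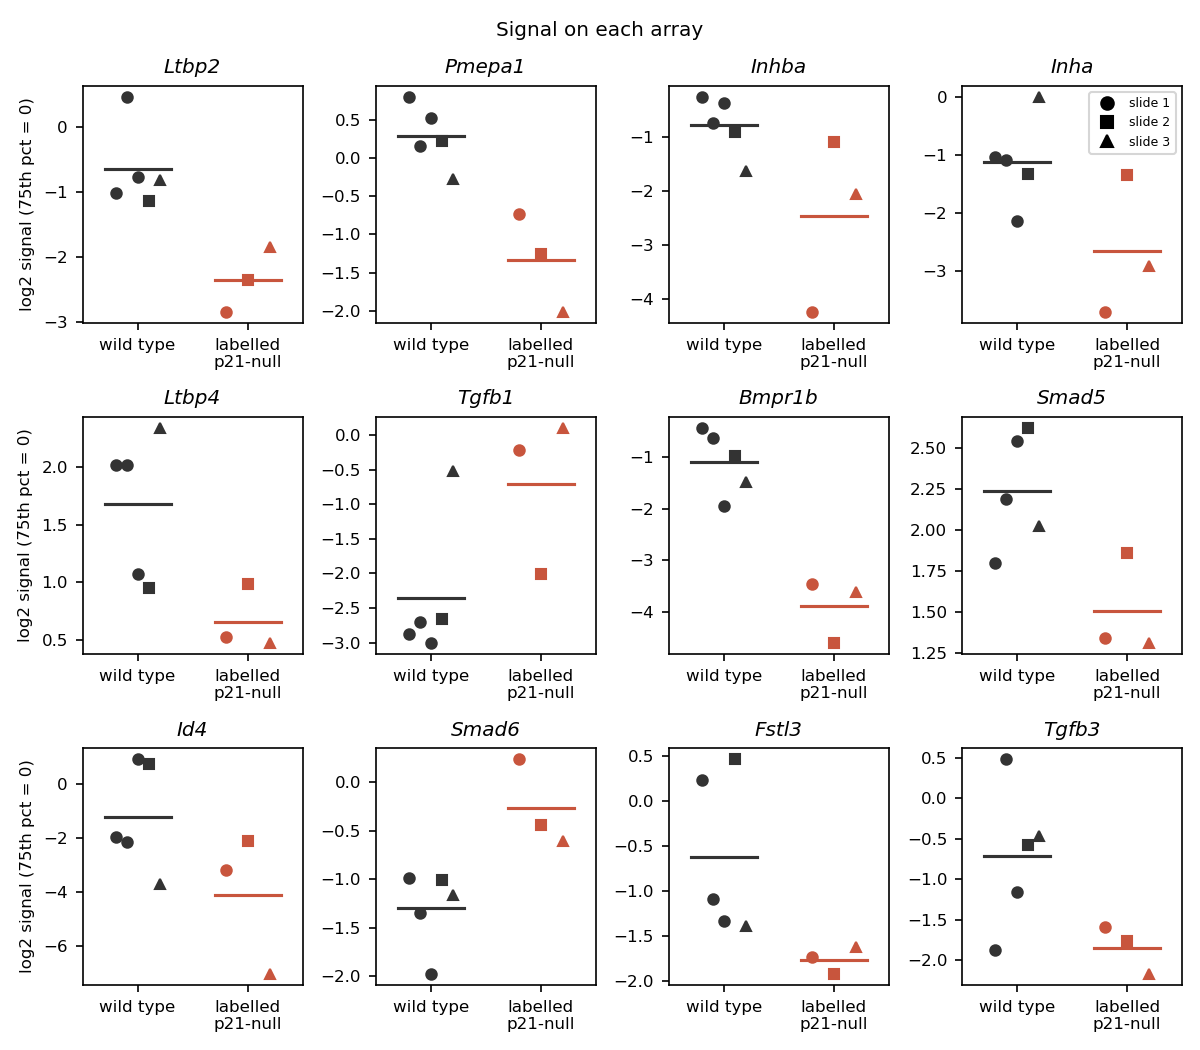
Log2 signal (y axis, 75th percentile of the array at 0) of 12 members on each array, with circles for slide 1, squares for slide 2, triangles for slide 3 and lines for group means. Ltbp2, Pmepa1, Bmpr1b and Fstl3 lie lower and Smad6 higher on all 3 arrays labelled p21-null than on any wild-type array.

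The 7 receptors of this branch had smaller differences than its ligands: 6 had negative differences, from -0.64 to -0.14, the median was -0.31 and 0 had an unadjusted limma p under 0.05. Acvr2a, a type II activin receptor, read 0.48, 0.35, 1.29, 0.39 and 0.28 against 0.24, -0.02 and 0.19. The groups did not overlap, but the gap between wild-type replicate 5 and p21-null replicate 1 was small beside the high value of wild-type replicate 3, and the difference was -0.42 (SE 0.32, limma adjusted p = 0.740). On its other probe the groups overlapped, from -2.78 to -1.62 against -3.81 to -1.83, with a difference of -0.70 (SE 0.49). The other type II activin receptor, Acvr2b, differed by -0.64 (SE 0.45). The type I receptor Tgfbr1 read 3.67, 2.34, 2.63, 3.12 and 3.24 against 2.59, 2.71 and 2.21, with overlapping groups and a difference of -0.50 (SE 0.36). Its other probe read -1.87, -1.28, -2.57, -1.65 and -2.16 against -1.24, -1.86 and -2.31 and gave 0.10, so the probes disagreed in sign. The type II receptor Tgfbr2 differed by -0.14 (SE 0.53), the type I activin receptor Acvr1b by -0.17 (SE 0.42) and Acvrl1, the endothelial type I receptor ALK1, by -0.31 (SE 0.53). Tgfbr3, the co-receptor betaglycan that presents TGF-β2 and binds inhibin, was the exception in sign: it read 1.93, 2.24, 0.93, 1.5 and 1.95 against 2.03, 1.71 and 2.25, within the range of wild type but for p21-null replicate 3, a difference of 0.29 (SE 0.36, limma adjusted p = 0.866).

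The follistatins, secreted proteins that bind and block activin, both had negative differences, and Fstl3 alone had an unadjusted limma p under 0.05. It read 0.23, -1.08, -1.33, 0.47 and -1.38 in wild type and -1.73, -1.92 and -1.62 in the labelled p21-null group. The wild-type arrays fell into a higher pair, replicates 1 and 4, and a lower set of 3, and all labelled p21-null arrays lay below that lower set. The difference was -1.14 (SE 0.50, 2.20-fold lower, limma p = 0.0488, adjusted p = 0.488, exact permutation p = 0.0893). Fst ran from -2.90 to 0.82 in wild type and from -2.23 to -1.74 in the labelled p21-null group, with a difference of -1.21 (SE 0.90) and with wild-type replicates 3 and 4 below all the arrays labelled p21-null.

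The receptor SMADs of this branch had differences near 0, and of its 3 target genes, all with negative differences, 1 had an unadjusted limma p under 0.05. Smad2 differed by 0.07 (SE 0.29) and Smad3 by -0.05 (SE 0.45). Smad3 read 2.56, 2.44, 1.70, 2.76 and 3.12 against 2.35, 3.33 and 1.72, while its other probe read -2.25, -1.60, -3.67, -0.98 and -1.14 against -2.03, -0.91 and -1.61 and gave 0.41. On neither probe did the groups separate.

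Pmepa1, a target of TGF-β signalling whose membrane protein holds receptor SMADs away from the receptor, read 0.80, 0.15, 0.52, 0.22 and -0.27 in wild type and -0.74, -1.26 and -2.02 in the labelled p21-null group. The groups did not overlap, and p21-null replicate 3 was the lowest. The difference was -1.63 (SE 0.38, 3.09-fold lower, limma p = 0.00202, adjusted p = 0.283, exact permutation p = 0.0179), and the other Pmepa1 probe gave -1.48 (SE 0.39). Tgfbi, a TGF-β-induced matrix protein, differed by -0.79 (SE 0.65), and Skil, which encodes the SMAD corepressor SnoN, by -0.47 (SE 0.36).

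The 6 BMP ligands had a median difference of -0.16 and 0 had an unadjusted limma p under 0.05. Bmp7, which the developing nephric tissue is known to need, ran from -0.93 to 1.40 in wild type and from -0.72 to 1.17 in the labelled p21-null group, a difference of -0.31 (SE 0.61). Bmp4, known to restrain budding from the nephric duct, ran from 1.84 to 3.82 and from 2.25 to 2.96, a difference of -0.33 (SE 0.51). Bmp5 and Bmp6 had the lowest value of their 8 arrays on wild-type replicate 1, at -4.98 and -5.12, and differed by 0.34 (SE 0.96) and -0.80 (SE 0.80). Bmp2 differed by -0.02 (SE 0.68) and Gdf10, a ligand of the BMP3 type, by 0.49 (SE 0.96). The labelled p21-null values overlapped with those of wild type for all 6.

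Bmpr1b, a type I BMP receptor also called ALK6, had the smallest p-value of the 51 members. It read -0.43, -0.62, -1.95, -0.97 and -1.48 in wild type and -3.46, -4.61 and -3.61 in the labelled p21-null group. All 3 labelled p21-null arrays lay below the lowest wild-type array, replicate 3, and p21-null replicate 2 was the lowest. The difference was -2.80 (SE 0.44, 6.97-fold lower, limma p = 0.000135, adjusted p = 0.253, exact permutation p = 0.0179). The other Bmpr1b probe read -1.28, -1.88, -4.18, -2.39 and -1.96 against -4.87, -3.60 and -2.81. There wild-type replicate 3 lay within the labelled p21-null range, and the difference was -1.43 (SE 0.69), so the probes agreed in sign but not in size. The other BMP receptors had smaller differences, of -0.55 (SE 0.39) for the type I receptor Acvr1, -0.39 (SE 0.43) for the type I receptor Bmpr1a and -0.31 (SE 0.38) for the type II receptor Bmpr2.

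All 4 genes of secreted BMP-binding proteins had negative differences, with a median of -0.78, and 0 had an unadjusted limma p under 0.05. Bmper, which can restrain or enhance BMP signals, read -3.96, 0.32, -1.96, -3.05 and -1.46 against -3.13, -3.75 and -4.03, with wild-type replicate 1 among the lowest arrays and a difference of -1.62 (SE 0.84, limma adjusted p = 0.583). Grem1, the BMP antagonist that permits ureteric branching, ran from -7.99 to -1.70 in wild type, where it was well above background on 4 of 5 arrays, and from -5.83 to -3.80 in the labelled p21-null group, a difference of -1.12 (SE 1.27). The BMP antagonists Nog and Chrd differed by -0.44 (SE 0.45) and -0.25 (SE 0.38).

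Of the BMP receptor SMADs, Smad5 read 1.80, 2.19, 2.54, 2.62 and 2.02 in wild type and 1.34, 1.86 and 1.31 in the labelled p21-null group. Only p21-null replicate 2 reached into the wild-type range, just above wild-type replicate 1. The difference was -0.73 (SE 0.31, 1.66-fold lower, limma p = 0.0417, adjusted p = 0.470, exact permutation p = 0.0536), and the other Smad5 probe gave -0.45. Smad1 differed by -0.49 (SE 0.38). Smad9 read -7.43, -4.23, -7.34, -8.34 and -4.10 against -5.90, -4.33 and -4.17 and was well above background on 2 of 5 wild-type and all 3 labelled p21-null arrays, so the wild-type mean is partly background. Its difference was 1.49 (SE 1.04, limma adjusted p = 0.713).

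The Id genes, whose helix-loop-helix proteins lack a DNA-binding region and which BMP signals are known to induce, differed in sign, with 3 differences positive and 1 negative. Id3 read -1.07, 0.87, -1.09, -0.12 and 1.67 against 0.52, 1.70 and 0.46, with overlapping groups and a difference of 0.84 (SE 0.68, limma adjusted p = 0.767). Id1 differed by 0.06 (SE 0.42) and Id2 by 0.16 (SE 0.41). Id4 had the most negative difference of the 51 genes, -2.89 (SE 1.35, limma p = 0.0606, adjusted p = 0.523, exact permutation p = 0.179), with the largest standard error of all members. Without p21-null replicate 3 it was -1.42. It read -1.98, -2.16, 0.93, 0.73 and -3.72 against -3.19, -2.13 and -7.06. Wild-type replicate 5 lay below p21-null replicates 1 and 2, and p21-null replicate 3 was not well above background.

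Among the genes that serve both branches, Smad6, the inhibitory SMAD that acts mainly on BMP receptors, was higher. It read -0.99, -1.35, -1.98, -1.01 and -1.16 in wild type and 0.24, -0.44 and -0.61 in the labelled p21-null group. All 3 labelled p21-null arrays lay above all wild-type arrays, with replicate 1 the highest. The difference was 1.03 (SE 0.35, 2.04-fold higher, limma p = 0.0155, adjusted p = 0.372, exact permutation p = 0.0179). Without p21-null replicate 1 it was 0.78, and its unadjusted limma p was then above 0.05. Smad7, the inhibitory SMAD of both branches, differed the other way, by -0.42 (SE 0.47). The common partner Smad4 read 3.57, 3.60, 3.67, 3.70 and 3.24 against 3.07, 3.63 and 3.01, a difference of -0.32 (SE 0.28, limma adjusted p = 0.785), and had the smallest wild-type standard deviation of the members, 0.18. The ubiquitin ligase gene Smurf2 read 0.62, 0.95, 0.09, 1.38 and 0.70 against -0.16, 0.69 and 0.50, a difference of -0.40 (SE 0.36, limma adjusted p = 0.793), with 3 probes that gave -0.43, -0.40 and -0.33. Smurf1 differed by -0.15 (SE 0.42).

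**Figure D4:**
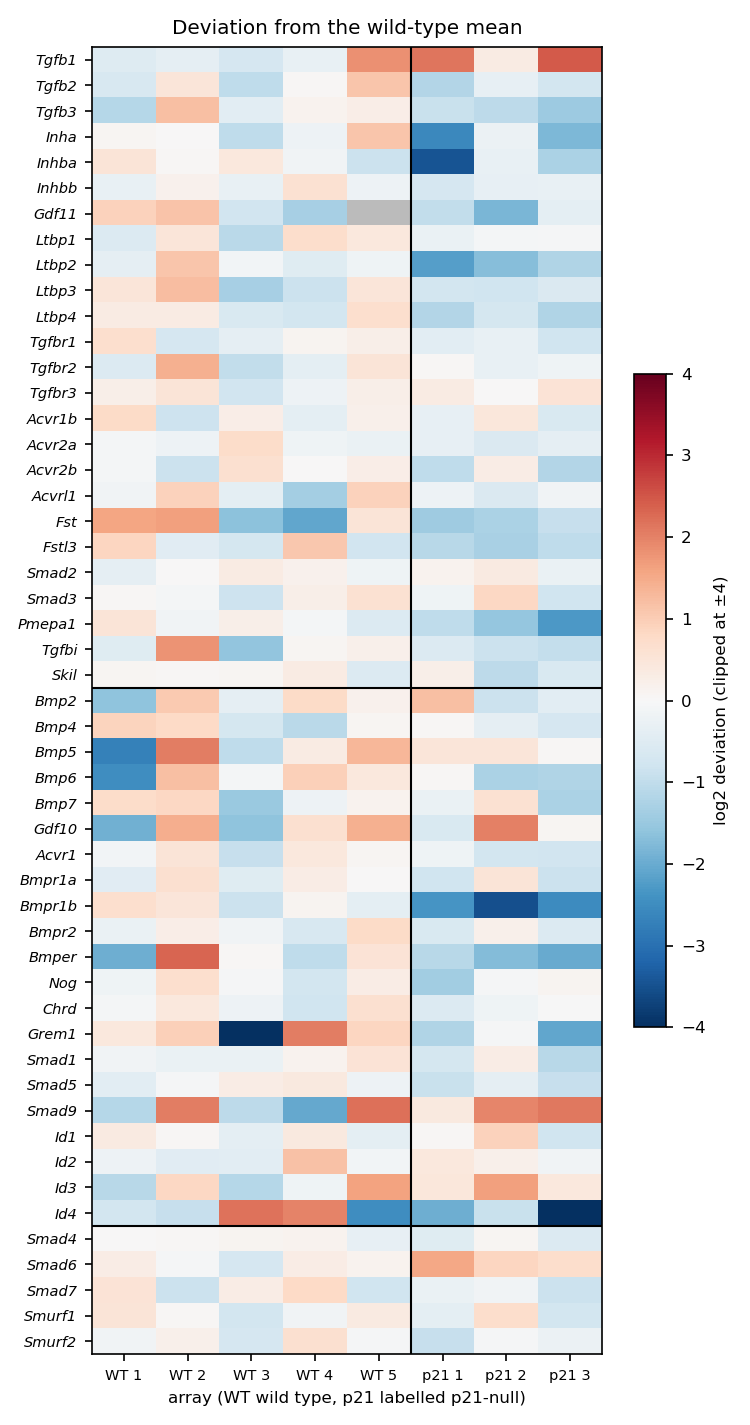
Each row is 1 of the 51 genes and each column an array; the colour is the log2 deviation from the wild-type mean of that gene, clipped at 4 in either direction, and grey is the Gdf11 spot left out. Rows run from TGF-β and activin genes (25) through BMP genes (21) to genes of both branches (5). Bmpr1b and Ltbp2 are blue on all 3 arrays labelled p21-null, and the BMP ligands vary in both directions among the wild-type arrays.

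The arrays lay on 3 slides, which the scanner files identify: wild-type replicates 1 to 3 and p21-null replicate 1 on slide 1, wild-type replicate 4 and p21-null replicate 2 on slide 2, and wild-type replicate 5 and p21-null replicate 3 on slide 3. The negative direction of the members was strong on 1 of these. On slide 3, 47 of 50 members (94%) were lower in the array labelled p21-null, beside 48.6% of all features, and all 21 BMP genes were among them. On slide 1 it was 34 of 51 (66.7%, features 58%) and on slide 2 it was 26 of 51 (51%, features 44%). The branch medians were -0.53, -0.18 and -1.03 on slides 1, 2 and 3 for TGF-β and activin genes and -0.29, 0.16 and -1.21 for BMP genes, so the BMP median was above 0 on slide 2. With only 1 labelled p21-null array on each slide, these within-slide values carry no test.

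Some genes kept 1 sign on all 3 slides. Of all features, 15.8% were lower on each slide and 15.8% higher. In the TGF-β and activin branch 11 of the 24 genes with a value on every slide (45.8%) were lower on all 3 and 2 (8.33%) were higher. In the BMP branch 5 of 21 (23.8%) were lower on all 3 and 0 were higher. The within-slide differences on slides 1, 2 and 3 were -2.46, -3.64 and -2.12 for Bmpr1b. For Pmepa1 they were -1.23, -1.48 and -1.76, and for Ltbp2 -2.42, -1.23 and -1.03. For Smad5 they were -0.84, -0.76 and -0.71, nearly equal on the 3 slides. Smad6 was higher by 1.68, 0.57 and 0.56 and Tgfb1 by 2.65, 0.65 and 0.63, so slide 1 gave the largest difference for both. Tgfb3 differed by -0.75, -1.19 and -1.71, and Fstl3 by -1.0, -2.39 and -0.23. For Inhba (-3.78, -0.18 and -0.43), Inha (-2.29, -0.02 and -2.92) and Ltbp4 (-1.19, 0.03 and -1.87) the array labelled p21-null on slide 2 was near its wild-type neighbour.

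**Figure D5:**
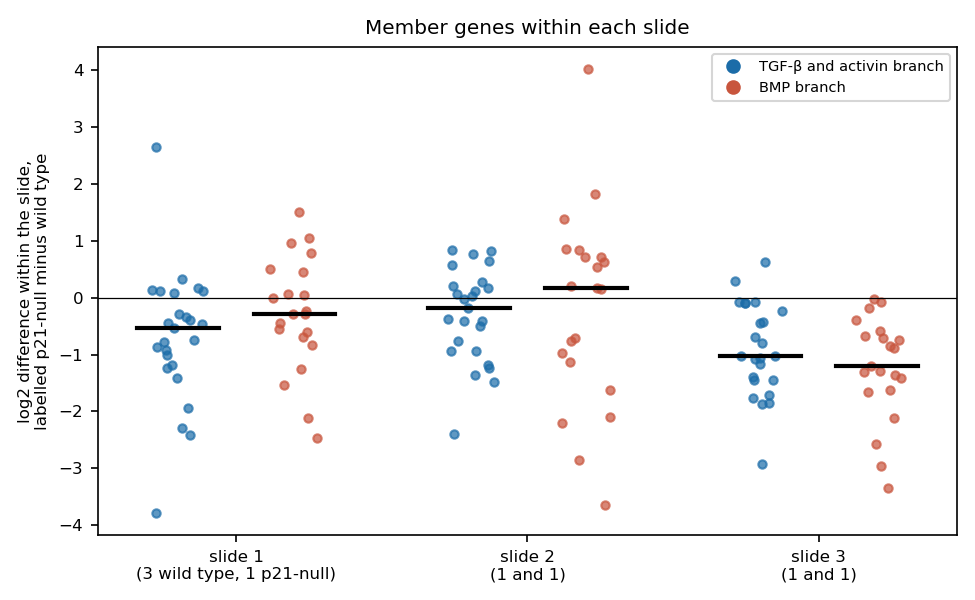
Each point is the log2 difference of 1 gene between the array labelled p21-null and the wild-type mean of the same slide (y axis), by slide and branch; bars are medians. Both branches lie below 0 on slide 3, with medians of -1.03 and -1.21, and scatter around 0 on slide 2, with medians of -0.18 and 0.16.

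Leaving out each array in turn separated the 10 genes with an unadjusted limma p under 0.05. Bmpr1b, Pmepa1 and Ltbp2 kept a p under 0.05 in all 8 of these fits, with highest p-values of 0.000841, 0.0125 and 0.0181, and Smad6 in 7 of 8. Inhba kept it in 4, Inha, Ltbp4, Fstl3 and Smad5 in 3 each, and Tgfb1 in 2. Without p21-null replicate 1 the count of members at that level was 3 (5.88%), below the 7.03% of all features. It was 5 (9.8%) without p21-null replicate 3, beside 5.21% of features, and 5 (9.8%) without wild-type replicate 2, beside 8.96%.

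Beyond the 51 genes, 63 of 65 other genes of the pathway on a second list were measured, and 39 (61.9%) were lower, with a median difference of -0.20, beside 52.3% and -0.03 over all features. At an unadjusted limma p under 0.05 stood 10 (15.9%, beside 10.1% of all features and 12.8% of those with a symbol), 6 lower and 4 higher, with adjusted p-values from 0.283 to 0.462; without p21-null replicate 1 the count was 5. The lower ones were regulators and co-receptors rather than ligands. Nedd4l, a ubiquitin ligase that acts on activated SMAD2 and SMAD3, read 0.54, -0.50, 0.92, 0.64 and 0.00 against -1.02, -1.35 and -1.50, without overlap, a difference of -1.61 (SE 0.37, limma p = 0.00194, exact permutation p = 0.0179). The BMP co-receptor gene Rgma read 1.46, 2.40, 2.04, 1.53 and 3.31 against -0.34, 0.89 and 0.53, also without overlap (-1.79, SE 0.49, limma p = 0.00522, exact permutation p = 0.0179), and its relative Rgmb differed by -1.58 (SE 0.63, limma p = 0.0340, exact permutation p = 0.0893).

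Itgb8, the β8 integrin subunit that activates latent TGF-β, differed by -2.27 (SE 0.72, limma p = 0.0114, exact permutation p = 0.0536) without overlap, as it read -1.88, -3.24, -0.32, -0.41 and -2.18 against -3.38, -3.36 and -4.90. Fbn2, a fibrillin to which latent complexes attach, differed by -1.09 (SE 0.42, limma p = 0.0281, exact permutation p = 0.0536) and the BMP-binding Twsg1 by -0.90 (SE 0.37, limma p = 0.0390, exact permutation p = 0.0714). Those with higher signal included Nrros, which anchors latent TGF-β1 on macrophages and microglia. It read -1.46, 0.43, -0.12, -0.59 and 0.97 against 1.88, 1.19 and 1.84, without overlap, a difference of 1.79 (SE 0.53, limma p = 0.00818, exact permutation p = 0.0357). Macrophage marker means were also higher in that group, as given above, and their part in Nrros was not tested. The ligand genes Nodal (1.13, SE 0.33, limma p = 0.00816, exact permutation p = 0.0179) and Inhbe (1.29, SE 0.47, limma p = 0.0219, exact permutation p = 0.0536) were higher without overlap. Liver marker means were also higher in that group, and the part of liver RNA in these ligand genes was not tested. Sost, a secreted antagonist of WNT that also binds BMPs, differed by 2.56 (SE 0.79, limma p = 0.0104, exact permutation p = 0.0357) with only 2 of 5 wild-type arrays well above background.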

How the data were processed

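RNA from microdissected tubules was extracted with a pico-scale kit and hybridised as Cy3 on 1-colour Agilent arrays, per the labels' protocols. The deposited scanner files hold intensity values from Agilent Feature Extraction 10.7.3.1, per the file headers, in which the processed signal is already background-subtracted. The authors also deposited a series table of log2 values, with its normalization not given in the sources used here, although limma is named in the submitters' processing notes. Each column had a median of 9.26 and correlated with normexp-corrected signals at 0.99932 or more, so its scale is taken as log2, not centred by gene. It served as an alternative.

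Here log2 processed signals were scaled to the 75th percentile of each array, control and outlier-marked spots were dropped, spots of a probe were averaged and probes well above background on at least 3 arrays were kept, 50046 of 55681. Accessions were named through RefSeq (26056 probes with a symbol), and the brightest probe stood for a gene. limma 3.58.1 in R 4.3.3 fitted wild type against labelled p21-null, with Benjamini-Hochberg adjustment over all 33619 features. The fit was also run on simulated data with independent noise in each feature. Such data hold no slide or tissue effects, so that run cannot show how the fit handles them. Exact two-sided permutation tests over the 56 splits were computed for each gene of the 51 members and of the second list and carry no adjustment. Genes given with values on every array were those with an unadjusted p under 0.05, the 2 of smallest p in each branch and direction and those whose probes differ in sign; Acvr2a, Tgfb2, Tgfb3, Bmper and Id4 beyond these were chosen after their values were seen. The members, the second list and the marker lists were chosen with earlier results of these data known. Alternatives covered scaling, background, the filter, the probe rule, moderation, array weights, slide and replicate blocks, the deposited table, single slides and leaving out each array. The number of arrays limits the precision.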

Additional observations from a re-analysis of the deposited data

Results flagged for a closer look

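Of 64 measures tested for a wild-type array far from the other 4, 7 exceeded the critical value of 0.71 (Dixon's ratio of gap to range), where chance marks about 1 measure in 20. Tgfb1 read -0.52 on wild-type replicate 5 against -3.01 to -2.66 on the others, and without that array its difference was 2.11. Ltbp2 read 0.47 on replicate 2 against -1.13 to -0.76. Acvr2a read 1.29 on replicate 3 against 0.28 to 0.48, and Grem1 read -7.99 on the same array against -3.32 to -1.70. That Grem1 value is a background reading, below the lowest signal well above background on that array, -5.93. Id2 read 1.57 on replicate 4 against -0.04 to 0.30, and Smad4 read 3.24 on replicate 5 against 3.57 to 3.70. The mean of the neural crest, glial and neuronal markers was -2.46 on replicate 1 against -1.07 to -0.58. Arrays 1 to 5 of the wild type each held at least 1 of these values.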

How the results depend on the processing

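No member passed the adjusted threshold with limma under any alternative that gives a test. The count of members at an unadjusted p under 0.05 was 10 as reported, 8 to 13 with all arrays, 8 with the replicate block, and 3 to 12 when single arrays were left out. On the second list it was 10, 16 with array weights, where p21-null replicate 3 had a weight of 3.01, and 5 to 13 when single arrays were left out. The branch medians stayed negative in every fit of all slides, from -0.66 to -0.47 (TGF-β and activin) and from -0.57 to -0.19 (BMP) with single arrays left out, and -0.55 and -0.29 with the replicate block. They were -0.18 and 0.16 within slide 2 and -1.03 and -1.21 within slide 3. Same-numbered arrays of the 2 groups correlated at 0.06, -0.08 and -0.07 in their deviations. These few values show no pairing by replicate number but cannot exclude it. Between the groups, arrays on the same slide correlated at 0.02 to 0.23 and arrays on different slides at -0.12 to 0.09.

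The sign of 38 members held in every fit over more than 1 slide, although within single slides 15 of these 38 had the other sign on at least 1 slide. The other 13 reversed in 42 of 1067 comparisons with such fits, and the cause was not tested. With all arrays, Bmp2 gave 0.0419 with median scaling, 0.0363 with normexp, 0.0201 with slide as a fixed block, 0.29 with the replicate block and 0.06 from the deposited table. Smad3 gave 0.0146 with median scaling, 0.18 as the mean of its probes, 0.41 by its first probe and 0.24 with the replicate block. Ltbp1 gave 0.25 with the replicate block. Under normexp, the deposited table and array weights in turn, Smad2 gave -0.0231, -0.021 and -0.0436 and Id1 -0.0144, -0.0118 and -0.29. Id2 gave -0.00995 with normexp and -0.0156 from the deposited table, and Bmp5 -0.08 with array weights. With single arrays left out the differences ran from -0.39 to 0.05 for Ltbp1, -0.39 to 0.22 for Tgfbr2, -0.47 to 0.05 for Acvr1b, -0.07 to 0.24 for Smad2, -0.48 to 0.33 for Smad3, -0.63 to 0.39 for Bmp2, -0.34 to 0.85 for Bmp5, -0.77 to 0.18 for Bmp7, -0.28 to 1.04 for Gdf10, -0.72 to 0.0322 for Nog, -0.38 to 0.49 for Id1 and -0.57 to 0.15 for Smurf1. Signals near background limit Smad9, Grem1, Id4 and Sost.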
